A study of Mus musculus with 6 samples.

Results

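The genes described are 38 lysosomal genes chosen by name: 15 subunits and partners of the lysosomal proton pump, 8 cathepsins, 5 lipid and glycan hydrolases, and 10 membrane proteins, sterol carriers, cofactors and regulators. Of the 38, 36 had an array probe annotated to that gene alone, and all 36 passed the intensity filter. They form part of the 13493 genes tested. Atp6v0c had no probe under its name, and the only probe of Glb1 was shared with Tmppe. Liver RNA was measured on 6 arrays. Of these, 3 came from male C57BL/6 mice dosed with Vascepa for 7 days and then kept on a high-fat diet for 6 weeks, and 3 from males of the same strain given vehicle over the same days and then the same diet. The mice were 8 weeks old before acclimatisation, and no group without the diet was analysed here. Vascepa is a drug of icosapent ethyl, an ester of a marine omega-3 fatty acid. The labels number the samples of each group from 1 to 3 without saying that they were separate animals, so each p-value below reflects sample-to-sample spread that may be technical alone.

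Lysosomes are the acidic compartments in which cells break down proteins, lipids and glycans taken up from outside or delivered by autophagy. Their acidity comes from the V-ATPase, a rotary pump whose soluble V1 sector hydrolyses ATP to turn a ring in the membrane-bound V0 sector, which carries the protons. Cathepsins and other hydrolases work at that low pH. In liver, hepatocytes use lysosomes to release cholesterol and fatty acids from lipoproteins and lipid droplets, and Kupffer cells, the resident macrophages, are rich in them.

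None of the 36 genes reached an adjusted p under 0.05 (limma, Benjamini-Hochberg), where 0% of all genes did so, and their adjusted p lay between 0.976 and 0.998. In the mean, 31 of the 36 lay lower in Vascepa livers and 5 higher. The median of their log2 differences was −0.25. Of all genes tested 60.1% lay lower, with a median of −0.063. Brighter genes as a whole lay lower too: among the 7211 genes at or above the 75th percentile of intensity, which hold 34 of the 36, 73.3% were lower and the median was −0.14. At an unadjusted p under 0.05 there was 1 lower lysosomal gene, Atp6ap1, and 0 higher, against 1.64% of all genes lower and 1.04% higher. The 3 Vascepa and 3 vehicle arrays did not overlap in 5 genes, all lower in Vascepa livers, against 5.11% of all genes lower and 3.13% higher. Arrays centred on the median of the tested genes, a setting added after seeing the data, moved the median of all genes to 0.037 and left 25 of the 36 lower, with a median of −0.14. In whole liver, fewer cells of a type and less RNA per cell cannot be told apart.

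**Figure D1:**
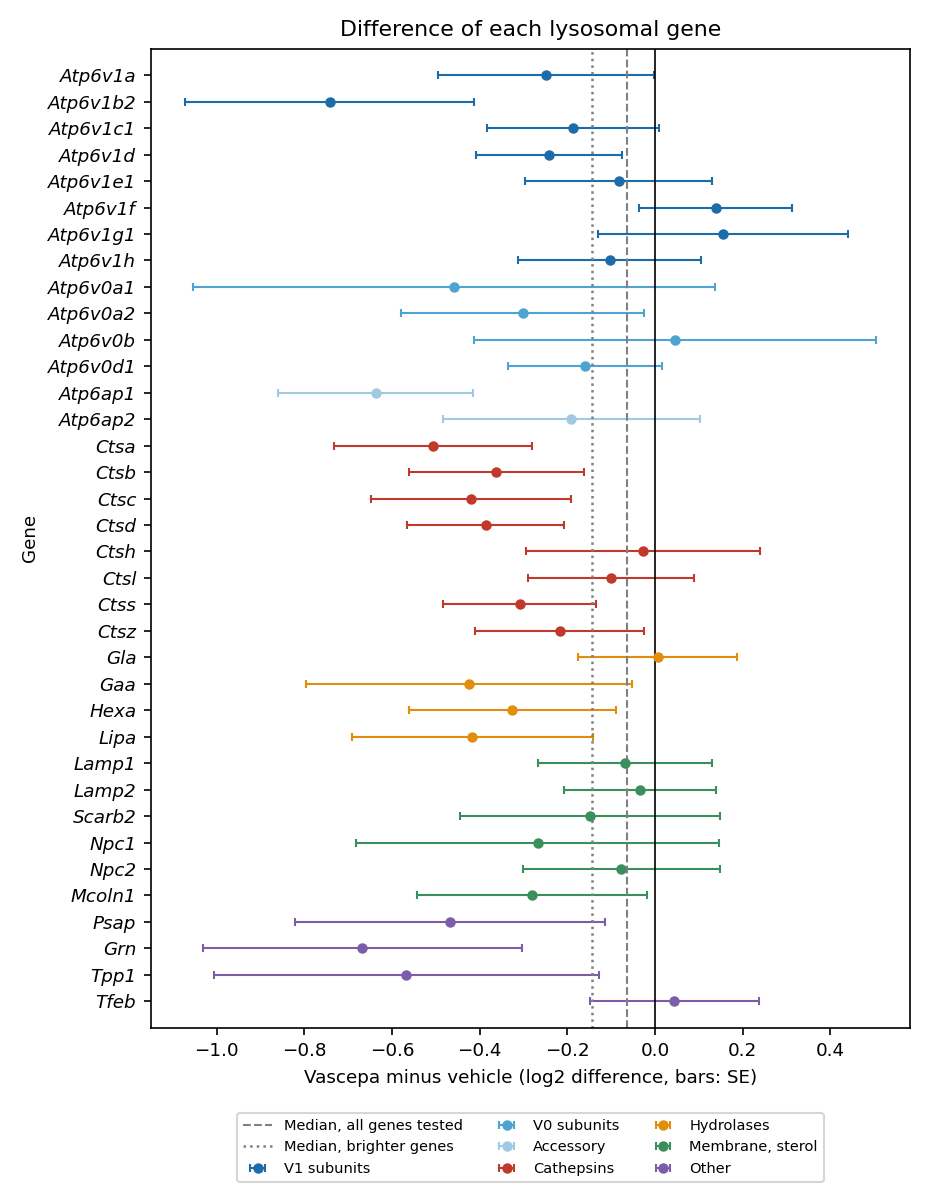
Difference in log2 level, Vascepa minus vehicle, for each of 36 lysosomal genes, with points for the difference and bars for limma's standard error. The dashed line is the median of all 13493 genes (−0.063) and the dotted line that of the 7211 brighter genes (−0.14). The 8 cathepsins all lie left of 0.

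Vascepa replicate 3 stood apart in these genes. It gave the lowest of the 6 values in 26 of the 36 genes (72.2%), against 38.8% of all genes and 54.9% of the brighter genes. Without it 25 of the 36 were lower, the median was −0.11 and that of the brighter genes −0.037. This array also had the narrowest spread over all probes, with an interquartile range of 2.41 against 2.73 and 2.60 on Vascepa replicates 1 and 2 and 2.75, 2.62 and 2.74 on the vehicle arrays. Its small nucleolar RNA level was the highest, at 6.72 on the log2 scale, with 5.17 and 6.24 on Vascepa replicates 1 and 2 and 5.33, 6.07 and 5.51 on the vehicle arrays. The part of the narrow spread in the lysosomal values was not tested. Fitted with the small nucleolar RNA level as a covariate, the 36 genes had a median of −0.14, with 26 lower. The brighter genes had one of −0.067 in that fit, with 63.4% lower. There the membrane and sterol genes turned to a median of 0.037, with 2 of 6 lower. Cathepsins stayed at −0.28, with 7 of 8 lower. The cause of these shifts was not tested.

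**Figure D2:**
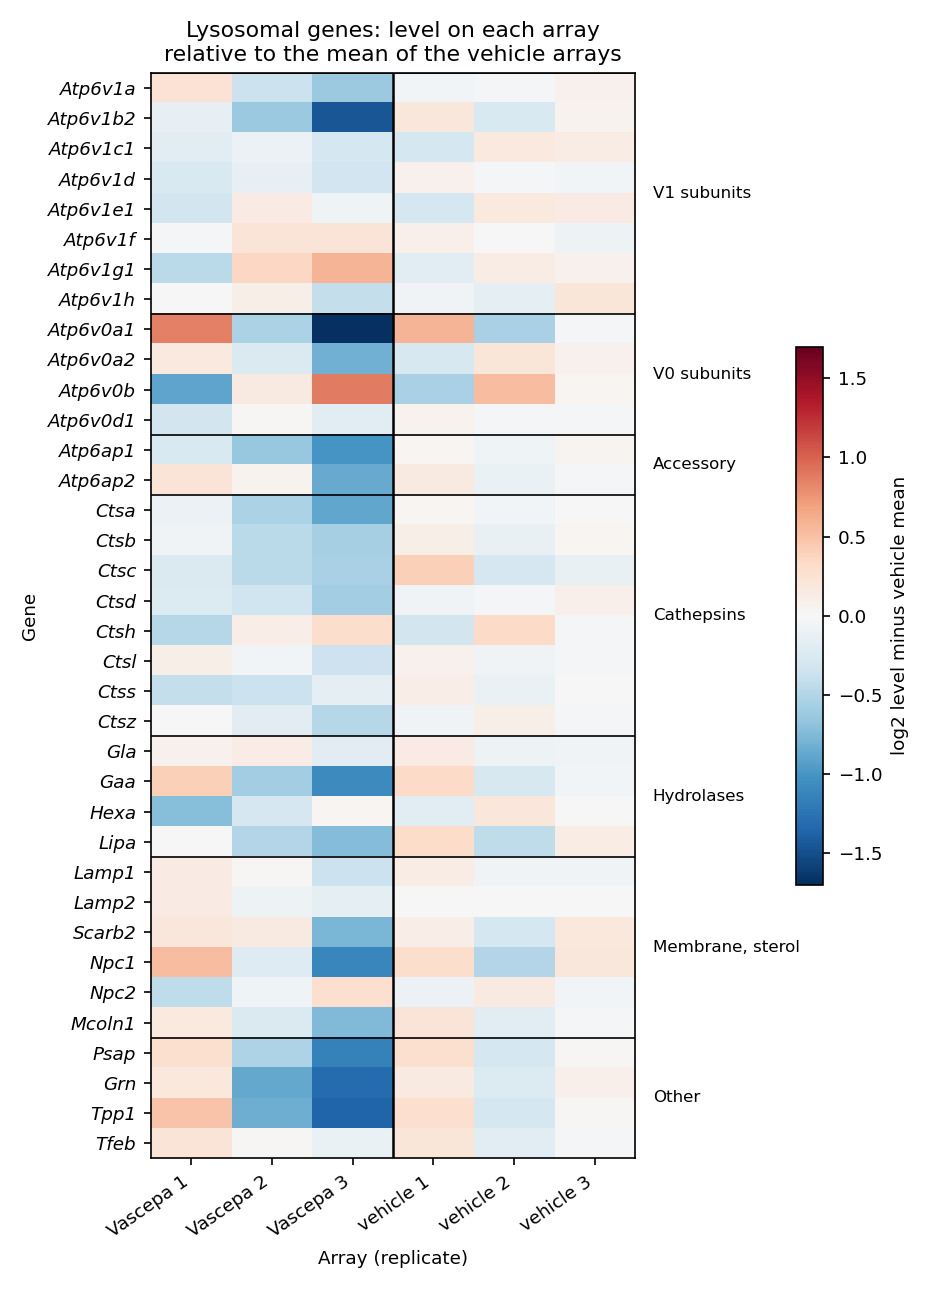
Log2 level of 36 lysosomal genes on each array minus the mean of the 3 vehicle arrays, in rows by role, with Vascepa arrays on the left. Blue is below the vehicle mean and red above it. Vascepa replicate 3 holds the lowest value in 26 genes, among them Grn, Tpp1, Psap, Gaa and Atp6v0a1, while Atp6v0b and Atp6v1g1 read highest there.

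The V1 sector was measured through 8 genes, 6 of them lower in the mean and 2 higher, with a median of −0.15 (−0.072 without Vascepa replicate 3, −0.068 without vehicle replicate 3). Atp6v1b2, the ATP-binding B subunit used in most tissues, read 6.67, 6.18 and 5.36 on the Vascepa arrays, against 7.01, 6.56 and 6.87 on the vehicle arrays. The groups overlapped, because Vascepa replicate 1 lay above vehicle replicate 2. Its difference of −0.74 ± 0.33 (SE), 1.67-fold lower, was −0.39 without Vascepa replicate 3, and a second probe of the gene differed by 0.21 in the opposite direction. Atp6v1d, a subunit of the rotor stalk, read 6.22, 6.34 and 6.16 in Vascepa livers, against 6.56, 6.45 and 6.43 in vehicle livers. All 3 Vascepa arrays lay below all vehicle arrays, by a small margin (−0.24 ± 0.17). Leaving out any 1 array kept its difference between −0.29 and −0.20.

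In the other V1 genes the groups overlapped. Atp6v1e1, a stator subunit, read 7.39, 7.84 and 7.62 on the Vascepa arrays, against 7.40, 7.86 and 7.84 on the vehicle arrays. Both groups spanned nearly the same values. Atp6v1a, the catalytic A subunit, differed by −0.25 ± 0.25, and Atp6v1c1, which joins the sectors, by −0.19 ± 0.20. Atp6v1a was −0.50 and −0.060 without Vascepa replicates 1 and 3. Atp6v1c1 was −0.33, −0.11 and −0.12 without vehicle replicates 1, 2 and 3. Atp6v1h, a regulator of ATP hydrolysis, differed by −0.10 ± 0.21. Atp6v1g1, a stator subunit, and Atp6v1f, a rotor subunit, were the 2 higher in the mean, at 0.15 ± 0.29 and 0.14 ± 0.17, and without Vascepa replicate 1 these were 0.46 and 0.22. The remaining 2 probes of Atp6v1g1 differed by −0.067 and −0.098, so its direction depended on the probe. Atp6v1f read 2.70 to 3.00 over the 6 arrays, near the filter level of 2.65.

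Among V0 genes, 2 subunits varied more between arrays than between groups, in opposite ways. Atp6v0a1, an isoform of the large a subunit that forms the proton path, read 7.22, 5.82 and 4.68 on the Vascepa arrays, against 6.95, 5.81 and 6.34 on the vehicle arrays. Atp6v0b, a proteolipid of the rotor ring, read 7.21, 8.26 and 8.99 in Vascepa livers, against 7.56, 8.63 and 8.14 in vehicle livers. Where one was high the other was low. Vascepa replicate 1 had the highest Atp6v0a1 and the lowest Atp6v0b, and Vascepa replicate 3 the reverse. Their differences of −0.46 ± 0.60 and 0.045 ± 0.46 were smaller than their standard errors, and both changed sign when single arrays were left out. Atp6v0a2, another a isoform, differed by −0.30 ± 0.28 and Atp6v0d1, which couples rotor to ring, by −0.16 ± 0.18. Atp6v0a2 was −0.54 and −0.042 without Vascepa replicates 1 and 3, and Atp6v0d1 −0.082 and −0.25 without Vascepa replicates 1 and 2.

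The accessory proteins of the pump held the smallest p of the set. Atp6ap1, a glycoprotein needed to assemble the V0 sector, read 6.91, 6.53 and 6.17 on the Vascepa arrays, against 7.21, 7.09 and 7.21 on the vehicle arrays. Every Vascepa array lay below every vehicle array, and the vehicle values were close together. It averaged 6.54 ± 0.37 in Vascepa livers and 7.17 ± 0.069 in vehicle livers (SD, 3 arrays each), 1.56-fold lower (−0.64 ± 0.22, limma, adjusted p = 0.976). Leaving out single arrays moved this difference between −0.82 and −0.46. Atp6ap2, the (pro)renin receptor, which also serves pump assembly, differed by −0.19 ± 0.29 and turned to 0.14 without Vascepa replicate 3. Over the 14 measured pump genes the median was −0.19, with 11 lower, or −0.072 without Vascepa replicate 3.

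**Figure D3:**
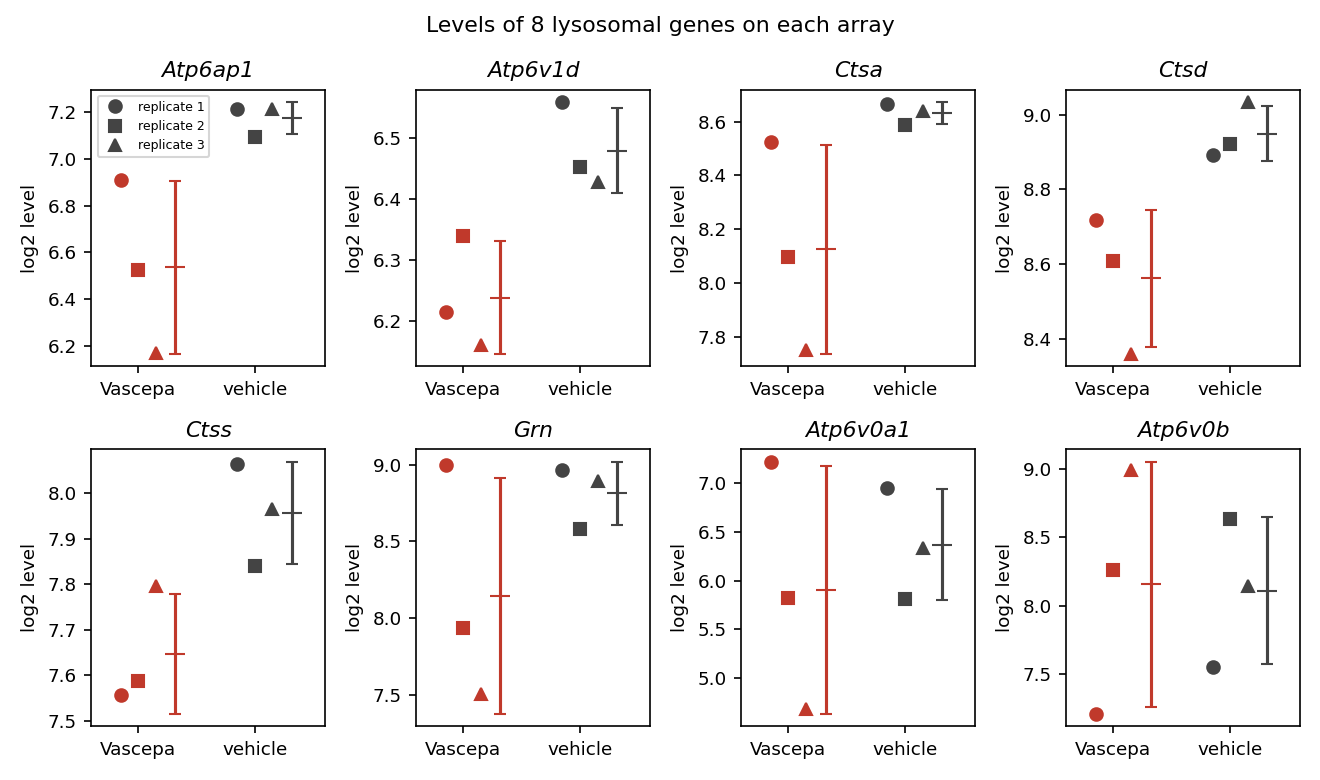
Log2 level on each array for 8 lysosomal genes, with Vascepa arrays in red on the left and vehicle arrays in grey on the right, marker shapes for replicate numbers and bars for the mean ± SD. In Atp6ap1, Atp6v1d, Ctsa, Ctsd and Ctss the groups do not overlap. In Grn, Atp6v0a1 and Atp6v0b the 3 Vascepa arrays spread more widely than the vehicle arrays.

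Cathepsins were lower in the mean in all 8 genes, or in 6 of 8 with arrays centred on the tested genes, and 3 of the 8 had groups that did not overlap, against 5.11% of all genes lower without overlap. Their median was −0.34, and lay between −0.40 and −0.25 when any 1 array was left out. Relative to the vehicle mean, the cathepsin median lay at −0.17, −0.35 and −0.51 on the Vascepa arrays and at 0.056, −0.051 and −0.0047 on the vehicle arrays. All 3 Vascepa arrays thus lay below the vehicle arrays. None of the 8 reached an unadjusted p under 0.05 in limma.

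Ctsa, a serine carboxypeptidase that also protects lysosomal galactosidase and neuraminidase, read 8.53, 8.10 and 7.75 in Vascepa livers, against 8.67, 8.59 and 8.64 in vehicle livers. Every Vascepa array lay below the narrow vehicle range, replicate 1 only just, and the difference was −0.51 ± 0.23, or −0.32 without replicate 3. Ctsd, the main aspartic protease of lysosomes, read 8.72, 8.61 and 8.36 on the Vascepa arrays, against 8.89, 8.92 and 9.03 on the vehicle arrays. It differed by −0.39 ± 0.18, and by −0.46 to −0.29 when single arrays were left out. Ctss, a cysteine protease of macrophages and other antigen-presenting cells, read 7.56, 7.59 and 7.80 in Vascepa livers, against 8.06, 7.84 and 7.97 in vehicle livers. Here Vascepa replicate 3 was the highest of its group, unlike in Ctsa and Ctsd, and the difference was −0.31 ± 0.18.

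The other 5 cathepsins overlapped between groups. Ctsb, an abundant cysteine protease of liver, read 11.31, 10.91 and 10.80 on the Vascepa arrays, against 11.46, 11.24 and 11.40 on the vehicle arrays. Only Vascepa replicate 1 lay within the vehicle range, and the difference was −0.36 ± 0.20. Ctsc, which activates serine proteases of immune cells, differed by −0.42 ± 0.23 and Ctsz, a carboxypeptidase, by −0.22 ± 0.19. Ctsc was −0.22 without vehicle replicate 1, and Ctsz −0.33 and −0.085 without Vascepa replicates 1 and 3. Ctsl, a further cysteine protease, and Ctsh, an aminopeptidase, differed by −0.10 ± 0.19 and −0.027 ± 0.27, and turned to 0.00046 and 0.073 with arrays centred on the tested genes.

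Lipid and glycan hydrolases had a median of −0.37, with 3 of 4 measured genes lower, and −0.17 without Vascepa replicate 3. Lipa, lysosomal acid lipase, which frees cholesterol and fatty acids from lipoprotein lipids, read 9.97, 9.47 and 9.23 on the Vascepa arrays, against 10.28, 9.54 and 10.11 on the vehicle arrays. Vehicle replicate 2 lay with the Vascepa arrays, and the difference was −0.42 ± 0.27, or −0.25 without Vascepa replicate 3. Gaa, which breaks down glycogen in lysosomes, read 6.62, 5.63 and 5.14 in Vascepa livers, against 6.55, 5.95 and 6.17 in vehicle livers. Vascepa replicate 1 was the highest of all 6 arrays and replicate 3 the lowest, and the difference of −0.42 ± 0.37 was −0.095 without replicate 3. Hexa, a subunit of the hexosaminidase that degrades gangliosides, differed by −0.33 ± 0.24 and Gla, alpha-galactosidase A, by 0.0063 ± 0.18. Hexa was −0.13 and −0.50 without Vascepa replicates 1 and 3. The probe shared by Glb1, beta-galactosidase, and Tmppe read 4.43, 3.90 and 3.34 in Vascepa livers, against 4.40, 3.77 and 3.95 in vehicle livers, and was not tested.

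Membrane and sterol genes lay close to 0, with a median of −0.11 and 6 of 6 lower, or 3 of 6 with arrays centred on the tested genes and 2 of 6 (median 0.056) without Vascepa replicate 3. Without Vascepa replicate 1, Vascepa replicate 2 or vehicle replicate 2 the median was −0.24, −0.20 or −0.20. Lamp2, a major glycoprotein of the lysosomal membrane and a receptor in chaperone-mediated autophagy, read 10.94, 10.71 and 10.63 on the Vascepa arrays, against 10.79, 10.79 and 10.80 on the vehicle arrays. The Vascepa arrays lay on both sides of the vehicle values (−0.034 ± 0.17). Lamp1, its close relative, differed by −0.069 ± 0.20 and Scarb2, which carries glucocerebrosidase to lysosomes, by −0.15 ± 0.30. Npc1 and Npc2, which pass cholesterol out of the lysosome, differed by −0.27 ± 0.41 and −0.077 ± 0.22. On Vascepa replicate 3 they stood at opposite ends, Npc1 at its lowest value of 6.53 and Npc2 at its highest of 7.57. Mcoln1, the calcium channel TRPML1, read 5.91, 5.49 and 4.98 in Vascepa livers, against 5.96, 5.56 and 5.70 in vehicle livers. All but Vascepa replicate 3 were within 0.5 of each other, and the difference was −0.28 ± 0.26, or −0.042 without it.

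Cofactors and peptidases of the lumen showed large mean differences with wide Vascepa spreads. Grn, progranulin, whose granulins are released in lysosomes, read 8.996, 7.94 and 7.50 on the Vascepa arrays, against 8.96, 8.58 and 8.90 on the vehicle arrays. Vascepa replicate 1 was the highest array and the other two lay below every vehicle array, for a difference of −0.67 ± 0.36. Psap, prosaposin, the precursor of activators of sphingolipid hydrolases, read 9.03, 8.23 and 7.62 in Vascepa livers, against 9.04, 8.47 and 8.78 in vehicle livers. Here too Vascepa replicate 3 was the lowest array. The difference was −0.47 ± 0.35 in Psap, and −0.57 ± 0.44 in Tpp1, tripeptidyl peptidase, which was lowest on Vascepa replicate 3 as well. Without Vascepa replicate 3 those of Grn, Psap and Tpp1 were −0.35, −0.13 and −0.17, and without Vascepa replicate 1 they were −1.09, −0.84 and −1.09. Over the 10 membrane, sterol and other genes the median was −0.21. It was −0.0063 without Vascepa replicate 3, −0.41 without Vascepa replicate 1, −0.12, −0.33 and −0.14 without vehicle replicates 1, 2 and 3, and −0.29 without Vascepa replicate 2.

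Tfeb, the transcription factor that drives lysosomal genes, read 2.86, 2.66 and 2.52 on the Vascepa arrays, against 2.85, 2.46 and 2.61 on the vehicle arrays. The groups overlapped fully (0.044 ± 0.19), and its mean over the arrays barely passed the filter level of 2.65. TFEB and its relatives bind an extended E-box, known as the CLEAR element, near the start sites of many lysosomal genes. RefSeq promoters (GRCm38.p6, 250 bases before to 50 after a start) were matched for 30 of the 38 genes. The E-box CACGTG, a palindrome, was found in 11 of the 30 genes (36.7%), against 8.09% of all 27025 genes with such a promoter. The extended form GTCACGTG, searched on both strands and holding the E-box within it, was found in 8 of the 30 (26.7%), against 2.55% of all genes.

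The windows below run from 100 bases before to 20 after the start site and show how matches lie in pump, cathepsin and membrane genes, with Atp6ap1, the gene of smallest p, as one without a match. Capitals mark CACGTG.
Ctsa, chr2:164833673-164833792, plus strand: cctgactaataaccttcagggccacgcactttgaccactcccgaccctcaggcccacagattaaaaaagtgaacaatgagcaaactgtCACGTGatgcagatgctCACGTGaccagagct
Ctsd, chr7:142387808-142387927, minus strand: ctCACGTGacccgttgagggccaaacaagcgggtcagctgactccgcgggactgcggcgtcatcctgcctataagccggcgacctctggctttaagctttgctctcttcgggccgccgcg
Lamp1, chr8:13159061-13159180, plus strand: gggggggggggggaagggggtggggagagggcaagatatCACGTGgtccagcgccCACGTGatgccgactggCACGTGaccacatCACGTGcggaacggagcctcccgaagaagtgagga
Mcoln1, chr8:3500419-3500538, plus strand: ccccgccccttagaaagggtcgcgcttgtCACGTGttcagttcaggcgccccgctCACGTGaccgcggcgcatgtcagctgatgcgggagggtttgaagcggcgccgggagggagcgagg
Atp6v0b, chr4:117887310-117887429, minus strand: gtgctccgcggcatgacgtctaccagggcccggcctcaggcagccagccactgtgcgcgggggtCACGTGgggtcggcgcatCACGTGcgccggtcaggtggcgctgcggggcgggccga
Atp6v0d1, chr8:105566045-105566164, minus strand: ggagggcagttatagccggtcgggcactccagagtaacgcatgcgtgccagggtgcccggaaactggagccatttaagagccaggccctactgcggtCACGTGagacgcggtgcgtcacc
Atp6ap1, chrX:74296997-74297116, plus strand: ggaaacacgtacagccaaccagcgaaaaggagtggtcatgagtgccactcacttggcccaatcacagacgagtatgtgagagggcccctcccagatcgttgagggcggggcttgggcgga
Lamp1 held 4 E-boxes in this window and Ctsa, Mcoln1 and Atp6v0b 2 each. Ctsd had a second match farther from its start, 242 bases before it. In Atp6v0d1 the E-box straddled the start site.

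The measured genes with and without an E-box lay close together. The 10 tested genes with an E-box had a median difference of −0.20, with 8 lower, and the 18 tested genes with a promoter but no E-box a median of −0.28, with 16 lower. With the extended form the medians were −0.16 for 7 genes holding it and −0.25 for the 21 without. Of the 5 genes whose groups did not overlap, Ctsa and Ctsd held both motifs, and Atp6ap1, Atp6v1d and Ctss neither. These counts describe letters in a fixed window and not binding.

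**Figure D4:**
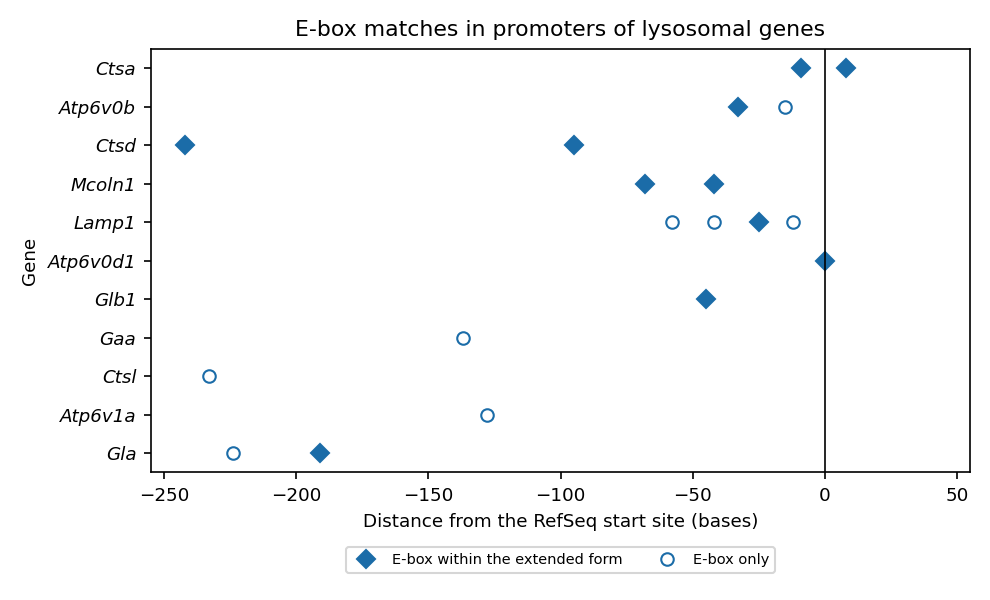
Position of the centre of each E-box in the RefSeq promoters of 11 lysosomal genes, as the distance in bases from the start site (0). Filled diamonds lie within the extended form and open circles do not. Ctsa, Atp6v0b, Mcoln1, Lamp1, Atp6v0d1 and Glb1 hold theirs within 68 bases of the start, and the others lie farther upstream.

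Other lysosomal genes were described by lists drawn up beside the 38. Of 31 further hydrolases and activators 24 were tested and 22 of them were lower, with a median of −0.32, 2 of them at an unadjusted p under 0.05 in limma and 4 with groups that did not overlap. Of all genes 60.1% were lower, 1.64% at that p and 5.11% without overlap. Of the brighter genes, which hold 21 of the 24, 73.3% were lower. Arrays centred on the tested genes left 18 of the 24 lower, where 57.3% of the brighter genes were. A further quantile normalization also left 18 of the 24 lower, where 59.5% of the brighter genes were. Asah1, acid ceramidase, read 6.40, 6.37 and 6.38 on the Vascepa arrays, against 6.74, 6.78 and 6.98 on the vehicle arrays, a clean gap (−0.45 ± 0.17, limma, adjusted p = 0.976). Galns, a sulfatase of keratan sulfate, differed by −0.49 ± 0.21. Without Vascepa replicate 3 this list had 18 of 24 lower and a median of −0.11. Of 10 further proteases 8 were tested and all 8 were lower, or 7 with arrays centred on the tested genes, with a median of −0.32 and of −0.26 without Vascepa replicate 3. Scpep1, a serine carboxypeptidase, and Ctse, an aspartic protease, differed by −0.65 ± 0.30 and −0.60 ± 0.27, the second −0.35 without vehicle replicate 3.

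Of 10 further pump subunits 7 were tested, and they did not share a direction, with 4 lower and a median of −0.14, which was 0.013 without Vascepa replicate 2 and −0.042 and −0.041 without vehicle replicates 2 and 3. Atp6v0d2, the d subunit isoform of osteoclasts and macrophages and the alternative to Atp6v0d1, read 2.53, 2.93 and 2.83 in Vascepa livers, against 4.44, 3.88 and 4.04 in vehicle livers (−1.36 ± 0.22, limma, adjusted p = 0.976). All its Vascepa values lay below all vehicle values and near the filter level, while the groups of Atp6v0d1 overlapped. Tcirg1, the a isoform of osteoclasts and immune cells, differed by −0.40 ± 0.26, or −0.16 without Vascepa replicate 3. Among further membrane proteins 13 of 17 were lower (median −0.14, and −0.31, −0.079 and −0.057 without Vascepa replicates 1, 2 and 3). Laptm5, found in blood-derived cells, differed by −0.80 ± 0.27 with no overlap, and Laptm4b, of the same family, by −0.59 ± 0.31, or −0.25 without Vascepa replicate 3.

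Genes that deliver enzymes to lysosomes were lower in 9 of 10 cases (median −0.15), or in 6 of 10 without Vascepa replicate 3 (−0.042). The median was −0.41 without Vascepa replicate 1 and −0.35 without vehicle replicate 2. Gnptab, which makes the mannose 6-phosphate tag, and M6pr, a receptor for it, differed by −0.85 ± 0.47 and −0.27 ± 0.18. Gnptab was −1.40 and −0.40 without Vascepa replicates 1 and 3. Of 24 autophagy genes 21 were lower, against 60.1% of all genes and 73.3% of the brighter genes. Their median was −0.23, or −0.080 without Vascepa replicate 3. With arrays centred on the tested genes 18 of the 24 were lower. The groups did not overlap in 3 of the 24, all lower, against 5.11% of all genes. Map1lc3a, of the LC3 family on autophagosomes, and Atg4b, which processes that family, differed by −0.43 ± 0.19 and −0.33 ± 0.20, both without overlap. Atg4b was −0.16 without Vascepa replicate 3. Relatives of TFEB and mTORC1 partners at the lysosome were lower in 8 of 15 cases (median −0.056, 0.045 with arrays centred on the tested genes and 0.056 after a further quantile normalization), and single arrays moved that median between −0.10 and −0.012. Flcn, folliculin, which acts on the Rag GTPases, and Tfec, a TFEB relative, differed by −0.46 ± 0.20 and −0.37 ± 0.23, the second −0.21 without vehicle replicate 3.

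Kupffer cell and macrophage markers were lower in the mean in 18 of 20 genes, or 15 of 20 with arrays centred on the tested genes. Their median was −0.23, with 4 at an unadjusted p under 0.05 in limma and 4 without overlap, all lower. The shares of all genes were 60.1% lower, 1.64% lower at that p and 5.11% lower without overlap. Among the brighter genes, which hold 18 of the 20 markers, 73.3% were lower and 6.2% lower without overlap. Relative to the vehicle mean the median of the markers lay at −0.45, −0.29 and −0.13 on the Vascepa arrays and at −0.0037, −0.022 and −0.033 on the vehicle arrays. They were lowest on Vascepa replicate 1, whereas the 36 lysosomal genes, at −0.0031, −0.20 and −0.51 on the Vascepa arrays, were lowest on replicate 3. Without Vascepa replicate 3 the marker median was −0.33. The markers' summed linear signal ranged from 1292 to 1959 in Vascepa livers and from 1764 to 1870 in vehicle livers, and none of the 20 lay under the filter. C1qb, a complement component, and Lyz2, lysozyme, differed by −0.52 ± 0.25 and 0.19 ± 0.50. The part of macrophage content in the lysosomal values was not tested.

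Markers of hepatocytes were present at high levels on all arrays, as the tissue label gives. Alb, serum albumin, read 13.33, 13.29 and 13.18 in Vascepa livers, against 13.30, 13.30 and 13.32 in vehicle livers, and Ttr, transthyretin, differed by −0.071 ± 0.16. The median of 14 hepatocyte markers lay at 0.0030, −0.078 and −0.41 on the Vascepa arrays and at 0.014, −0.031 and 0.0026 on the vehicle arrays. Their summed linear signal ranged from 51575 to 66991 in Vascepa livers and from 61507 to 67202 in vehicle livers. They read lowest on Vascepa replicate 3. Of the 14, 3 were lower without overlap, against 5.11% of all genes, and 0 reached an unadjusted p under 0.05 in limma. In the mean 12 of the 14 were lower, or 7 of 14 with arrays centred on the tested genes, and their median difference of −0.11 was −0.27, −0.046 and −0.19 without Vascepa replicate 1, Vascepa replicate 3 and vehicle replicate 2.

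**Figure D5:**
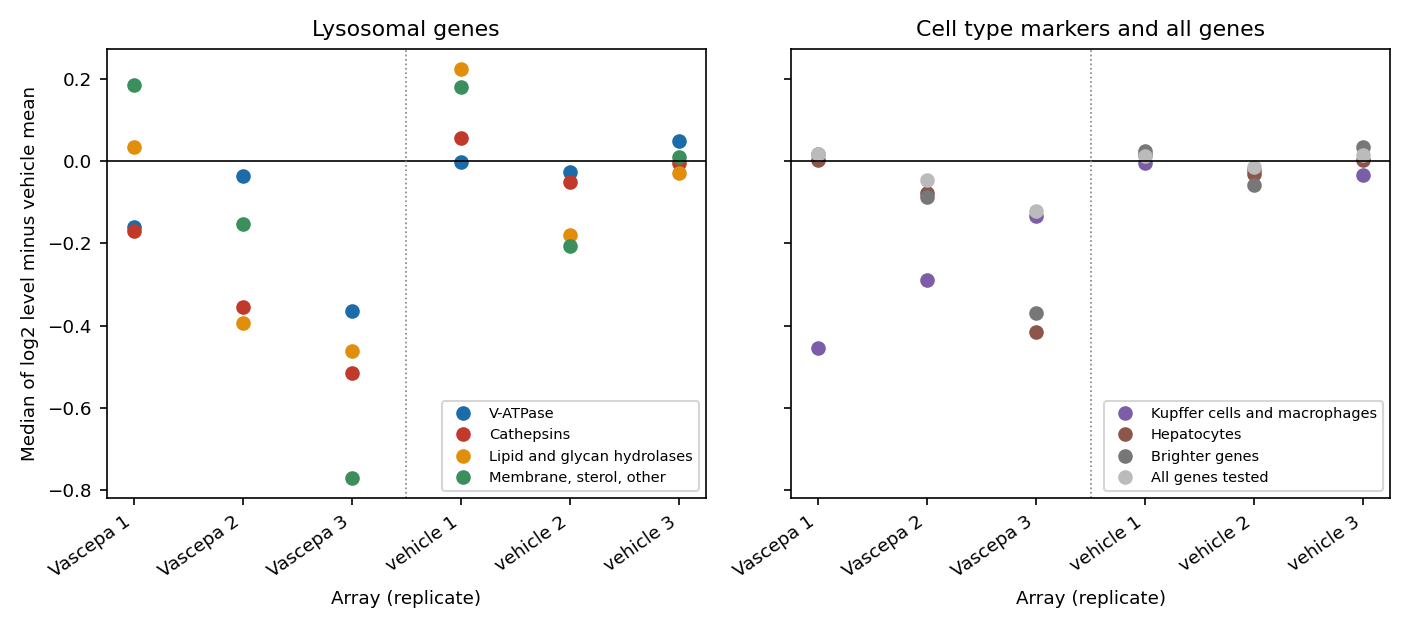
Median over the genes of a list of the log2 level minus the vehicle mean, on each array, for 4 groups of lysosomal genes (left panel) and for cell type markers, brighter genes and all genes tested (right panel). Cathepsin medians are below 0 on all 3 Vascepa arrays. The macrophage markers are lowest on Vascepa replicate 1, and hepatocyte markers and brighter genes on Vascepa replicate 3.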

How the data were processed

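The 6 arrays, 3 of Vascepa and 3 of vehicle livers, were grouped by the sample titles. The authors deposited log2 expression values, 1 per probe and array, made with Affymetrix Expression Console and RMA per the submitters' processing notes, the sources used here giving no version or genome build. RMA compresses differences of dim probes. The number of arrays limits the precision, and no scan dates were known.

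Of 41345 probes, 23521 had 1 symbol in the platform annotation, updated by gene ID for 23328, 1814 had several and 16010 none. Single-symbol probes whose mean reached the all-probe median (2.65) were kept, the brightest per gene, giving 13493 genes. Vascepa was compared with vehicle with limma 3.58.1 in R 4.3.3 (lmFit, eBayes), adjusted over all genes, after a test on simulated data. The simulated shifts were larger than any lysosomal difference seen and the noise independent between genes, so that test gives no power for these data. Differences are Vascepa minus vehicle in log2, with limma's SE. The small nucleolar RNA level is the mean over 84 probes. The summed linear signal adds 2 to the power of the log2 values.

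Genes shown on every array are those without overlap, at an unadjusted p under 0.05, of largest difference or brightest in their group, and Tfeb. From the other lists described, the 2 of smallest p (markers: the 2 brightest) are named, with Atp6v0d2 and Tcirg1. Other single genes were chosen after their values were seen. Members and lists were chosen with earlier results of these data known. Protein sequences were not analysed here. Alternatives covered scaling, filters, probe choice, variance model, array weights, the replicate number, the small RNA level and each array left out.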

Additional observations from a re-analysis of the deposited data

How the results depend on the processing

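No gene of the 36 passed at an adjusted p under 0.05 in any setting but 1. Array weights, whose estimation stopped before converging and put a weight of 39.5 on Vascepa replicate 2, called 14 of the 36 and 4100 of all genes (limma), with 19 and 5902 at an unadjusted p under 0.05. The small RNA level as a covariate called 3 of all genes and none of the 36, with 800 and 4 at an unadjusted p under 0.05. The reported fit had 1 of the 36 there, and 141 higher and 221 lower of all genes. No intensity filter gave 757 of 22180 genes (3.41%) and 3 of the 36. The 75th percentile filter gave 106 of 7211 genes (1.47%), against 2.68% in the reported fit. Arrays centred on the tested genes (added after seeing the data) gave 2 of the 36. With arrays centred on the tested genes 66.9% of the genes at that level were higher, and with arrays centred on all probes 16.9%, against 39.0% as reported. Leaving out single arrays gave 141 to 2018 of all genes and 0 to 11 of the 36, both highest without Vascepa replicate 1. All genes numbered 198, 141 and 221 without vehicle replicate 1, vehicle replicate 3 and Vascepa replicate 2, and none of the 36 was left without any of these or without Vascepa replicate 3. The replicate block gave 2 of the 36, 129 higher and 309 lower of all genes, and none adjusted. Same-numbered samples deviated together at r = 0.61, 0.11 and −0.13, so the numbers were not taken to pair them.

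The pump median became −0.065 with array weights and the hydrolase median −0.12 with the small RNA level. Leaving out single arrays gave −0.32 to −0.11 for all 36, −0.24 to −0.072 for the pump, −0.40 to −0.25 for cathepsins, −0.40 to −0.17 for hydrolases and −0.41 to −0.0063 for the rest. Other median shifts were smaller than the spread between arrays, though a shift under that spread can still remove most of a difference. With the small RNA level the median of the 10 membrane, sterol and other genes became −0.014, with 5 of 10 lower. As reported it was −0.21, with 9 of 10 lower. Leaving out a single array could hardly exceed that spread, so the comparison with it says nothing on the leave-one-out shifts.

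Of 394 differences of single lysosomal genes under other settings 367 kept their direction, as did 194 of 216 with an array left out, and 20 of the 36 genes kept it throughout. The cause of the turns was not tested. With array weights the difference was 0.071 in Atp6v1e1, 0.042 in Atp6v0d1, 0.073 in Atp6ap2, 0.13 in Ctsh, 0.048 in Lamp1 and 0.046 in Scarb2. With the small RNA level it was −0.098 in Atp6v1g1, 0.17 in Atp6v0a1, −0.43 in Atp6v0b, 0.030 in Atp6ap2, 0.00028 in Ctsl, 0.043 in Lamp1, 0.032 in Lamp2, 0.074 in Scarb2 and 0.15 in Npc1. Centred on the tested genes it was 0.018 in Atp6v1e1, 0.073 in Ctsh, 0.00046 in Ctsl, 0.031 in Lamp1, 0.066 in Lamp2 and 0.023 in Npc2. Centred on all probes it was −0.031 in Atp6v0b, −0.070 in Gla and −0.032 in Tfeb. Quantile normalization again gave 0.0053 in Atp6v1h and −0.034 in Tfeb, and the mean over probes −0.0033 in Atp6v1g1.

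With single arrays left out the difference ran between −0.23 and 0.031 in Atp6v1e1, −0.058 and 0.46 in Atp6v1g1, −0.20 and 0.050 in Atp6v1h, −1.11 and 0.16 in Atp6v0a1, and −0.37 and 0.52 in Atp6v0b. It ran between −0.39 and 0.14 in Atp6ap2, −0.19 and 0.20 in Ctsh, −0.20 and 0.027 in Ctsl, and −0.053 and 0.10 in Gla. It ran between −0.17 and 0.082 in Lamp1, −0.12 and 0.030 in Lamp2, −0.32 and 0.17 in Scarb2, −0.66 and 0.15 in Npc1, −0.26 and 0.10 in Npc2, and −0.047 and 0.15 in Tfeb.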

Other observations

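Markers of lipid-laden macrophages did not move together in Vascepa livers. Of 7 measured genes 4 were lower, with a median of −0.090, which was −0.0011 and −0.16 without vehicle replicates 1 and 3 and turned to 0.010, with 3 lower, with arrays centred on the tested genes. Cd36, a fatty acid uptake receptor used by several liver cells, differed by −0.77 ± 0.32 and Cd9, a tetraspanin, by −0.15 ± 0.18 (SE). At an unadjusted p under 0.05 in limma 2 of the 7 were lower, Cd36 and Fabp5 (−0.55), and 0 higher. Of all genes 1.64% were lower and 1.04% higher at that p. The groups overlapped in both genes. Markers of sinusoidal endothelium were lower in 10 of 12 genes and of stellate cells in 8 of 10, with medians of −0.095 and −0.11, or −0.027 and −0.035 without Vascepa replicate 3 and −0.22 and −0.30 without Vascepa replicate 1. The endothelial median was −0.049 without vehicle replicate 1. With arrays centred on the tested genes 6 of 12 and 5 of 10 were lower, and the endothelial median turned to 0.0050. After a further quantile normalization 5 of 12 and 6 of 10 were lower, and the endothelial median was 0.0056. Fcgr2b, an Fc receptor, and Clec4g, a lectin, both of sinusoidal endothelium, differed by 0.045 ± 0.17 and 0.067 ± 0.27. Dcn, decorin, and Rgs5, a pericyte gene, differed by −0.13 ± 0.18 and 0.0029 ± 0.20. Of 12 genes of pancreas, muscle and fat 7 were tested, 2 of them at or above the 75th percentile of intensity. All 7 were higher, where 60.1% of all genes were lower, with a median of 0.41, or 0.25 without Vascepa replicate 3. Without vehicle replicate 3, 1 of the 7 was lower. The groups did not overlap in 2 of the 7, both higher, against 3.13% of all genes. Cela1, a pancreatic elastase, differed by 0.14 ± 0.24 with overlapping groups, and Acta1, skeletal muscle actin, by 0.52 ± 0.18 without overlap. Their part in the lysosomal values was not tested.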
